A study of Rattus norvegicus with 12 samples.

Results

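The interferon-stimulated genes described here are 38 named genes that cells switch on when they sense interferon, and they were followed in the rat pubocaudalis, one of the pelvic floor muscles, after simulated birth injury (SBI). The set was chosen by gene name and covers antiviral effectors, the transcription factors of the pathway, cytosolic RNA sensors, the ISG15 and ubiquitin system, and interferon-gamma-inducible GTPases with Tap1. Of the 38 names, 37 had a row with counts among 30206 genes listed, and 36 were among the 14599 genes with enough counts to be tested. Ifit1 was the member left untested, with at most 4 counts in any library. Ddx58, the gene of the RNA sensor RIG-I, had no row of that name, and a row named Rig1, for which RefSeq gives Ddx58 as a synonym, was kept apart from the members.

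All rats were 3-month-old female Sprague-Dawley animals that were pregnant and received SBI, a vaginal balloon distention late in pregnancy. After delivery the pups were taken away (1wk SBI and 3wk SBI, non-lactating) or left to nurse (1wk SBI + Lac and 3wk SBI + Lac, lactating), and muscle was collected 1 or 3 weeks after injury. The paper gives as a limitation that taking the pups away may alter more than lactation. The lactation contrasts here share this limit. Each of the 4 groups had 3 libraries of polyadenylated RNA, and each library was a pool of RNA from 2 rats. By the sample titles the 3 pools of a group hold different rats, while the paper calls the pools technical replicates. A pool thus mixes 2 animals, and the spread between pools may in part be technical. No uninjured or never-pregnant muscle was sequenced in these libraries, so every value is a comparison among injured muscles. Library totals ran from 30862144 to 51662983 counts at 1 week and from 10082734 to 75634391 at 3 weeks. The 12 markers of skeletal muscle that had rows were above 0, as were all 24 of macrophages and monocytes.

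Interferons are secreted by cells that detect viral or misplaced nucleic acid, or by activated lymphocytes, and act on neighbouring cells through receptors coupled to Janus kinases. Type I interferon acts on its target genes mainly through the interferon-stimulated response element (ISRE), and interferon gamma mainly through the gamma-activated site (GAS). In skeletal muscle the response is best known from viral infection and from inflammatory myopathies, and after injury much of it belongs to macrophages and other infiltrating cells.

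At 1 week after injury, no member passed the test for a difference between lactating and non-lactating rats, against 0.253% of all genes tested. At 3 weeks, all 36 members tested had lower values in lactating rats. Their median log2 fold change was -0.58, against -0.019 over all genes tested. One of them, Lgals3bp, passed the study's cutoffs (adjusted p under 0.05 and a log2 fold change beyond 1) in edgeR, the test used here. It was 2.05-fold lower (edgeR adjusted p = 0.0242), and 0.740% of all genes tested were called. The study used DESeq2, which here called 3 members with all 12 libraries and 5 with only the 3-week libraries. Those calls stood against 1.37% and 1.03% of its genes lower. In 23 of 36 members each of the 3 lactating pools lay below each of the 3 non-lactating pools, a pattern seen in this direction for 10.4% of all genes tested.

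The promoters of the members are shown first, with matches to the core letters of the ISRE and the GAS, the elements through which interferon is known to act. RefSeq start sites of the GRCr8 build were found for 29 of 38 members, and the 250 bases upstream of each were searched on both strands for the core of the ISRE, GAAANNGAAA, and of the GAS, TTCNNNGAA. An ISRE core lay in 18 of 29 member promoters (62.1%) and in 3.41% of all 33469 promoters, and 11 of the 29 held none. A GAS core lay in 8 of 29 (27.6%) and in 7.67% of all. Shown here are the 150 bases before the start site of the called member, of the transcription factor Irf7, of the member with the largest change, of a GTPase, of a member of the 2′,5′-oligoadenylate synthetase family and of Mx1, which held no match in its window. Each is read 5′ to 3′ toward the gene, and capitals mark ISRE cores, which run together where matches overlap (Oas1a).
Lgals3bp (chr10:104127849-104127998, minus strand): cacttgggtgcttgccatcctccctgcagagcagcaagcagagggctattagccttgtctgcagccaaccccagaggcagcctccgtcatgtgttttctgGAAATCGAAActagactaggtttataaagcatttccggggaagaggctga
Irf7 (chr1:205800024-205800173, minus strand): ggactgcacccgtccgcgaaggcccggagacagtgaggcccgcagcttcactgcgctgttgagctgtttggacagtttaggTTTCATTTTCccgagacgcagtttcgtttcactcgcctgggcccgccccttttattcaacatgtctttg
Rsad2 (chr6:48788121-48788270, minus strand): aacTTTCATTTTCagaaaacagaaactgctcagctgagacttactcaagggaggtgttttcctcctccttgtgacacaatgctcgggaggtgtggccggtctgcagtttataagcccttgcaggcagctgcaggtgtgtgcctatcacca
Igtp (chr10:42874897-42875046, plus strand): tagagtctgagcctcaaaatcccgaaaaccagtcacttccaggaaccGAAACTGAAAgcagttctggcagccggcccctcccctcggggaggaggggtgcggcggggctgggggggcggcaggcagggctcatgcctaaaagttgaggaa
Oas1a (chr12:41330316-41330465, plus strand): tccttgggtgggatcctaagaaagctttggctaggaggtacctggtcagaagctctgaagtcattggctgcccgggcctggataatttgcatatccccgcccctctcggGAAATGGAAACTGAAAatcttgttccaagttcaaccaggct
Mx1 (chr11:50294607-50294756, minus strand): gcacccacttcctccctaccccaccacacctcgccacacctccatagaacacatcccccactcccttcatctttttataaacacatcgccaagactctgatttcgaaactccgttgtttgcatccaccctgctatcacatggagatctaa

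In 4 of the 29 member promoters (13.8%) a GAS core was followed within 10 bases by an ISRE core, an arrangement found in 7 of all 33469 promoters (0.0209%). The spacing was 2 bases in Igtp, Irgm and Parp14 and 3 bases in Bst2, where a further ISRE core overlaps the GAS core. They are printed because the neighbouring cores can be compared base by base, with capitals for the GAS core at the left and the ISRE core at the right. This arrangement was noticed after the promoters had been read, and a match of letters is not evidence that a factor was bound.
Bst2 (chr16:18255083-18255104, minus strand): TTCCAGGAAaatGAAACTGAAA
Igtp (chr10:42874933-42874953, plus strand): TTCCAGGAAccGAAACTGAAA
Irgm (chr10:33742603-33742623, minus strand): TTCAAGGAAtaGAAACTGAAA
Parp14 (chr11:78408047-78408067, plus strand): TTCCAGGAAatGAAAGTGAAA

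Levels are given as normalized CPM, read counts scaled to a common library size after TMM normalization. They are not divided by transcript length, so they rank pools for 1 gene and not genes against each other. Because these are whole-muscle RNA samples, fewer cells of a type and less RNA per cell cannot be told apart.

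**Figure D1:**
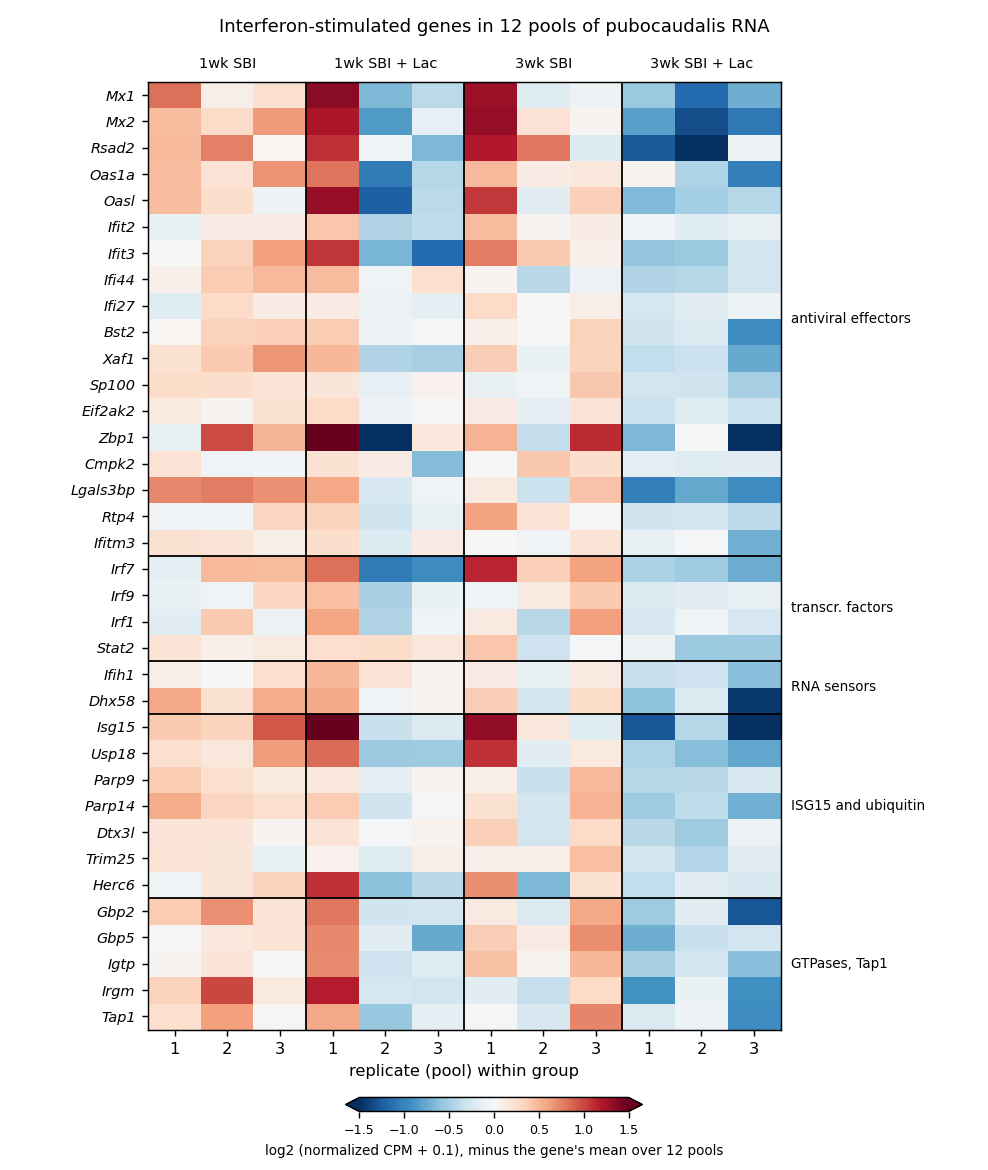
Each row is a member and each column a pool, coloured by log2 (normalized CPM + 0.1) minus the gene's mean over the 12 pools; colours stop at the ends of the scale. The 3wk SBI + Lac columns are mostly blue, and the column of 1wk SBI + Lac replicate 1 is red for most members, in contrast to the other 2 pools of its group.

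The antiviral effectors were the most numerous role, with 18 members tested. These genes encode proteins that block entry, translation, replication or release of viruses. At 3 weeks their median log2 fold change was -0.60, all 18 were below 0, and in 14 the pools of the groups did not overlap, against 10.4% of all genes tested in that direction. At 1 week 16 of 18 were below 0, with a median of -0.13.

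Lgals3bp encodes a secreted glycoprotein that binds galectins. Its level was 32.0, 33.2 and 31.4 normalized CPM in the 1wk SBI pools, 29.1, 16.5 and 18.8 in those of 1wk SBI + Lac, 21.3, 15.5 and 26.2 in the 3wk SBI pools, then 9.48, 11.4 and 10.1 in those of 3wk SBI + Lac. The lactating pools lay below the non-lactating pools at both times, without overlap. The means were 32.2 ± 0.938 against 21.5 ± 6.74 at 1 week and 21.0 ± 5.37 against 10.3 ± 0.962 at 3 weeks (SD, n = 3 pools each). The log2 fold change was -0.59 (SE 0.20, edgeR adjusted p = 0.138) at 1 week and -1.03 (SE 0.21, edgeR adjusted p = 0.0242) at 3 weeks. The 3-week call was lost when 3wk SBI replicate 3 or any single pool of 3wk SBI + Lac was left out, with edgeR adjusted p up to 0.113. The log2 fold change stayed between -1.21 and -0.81. In those settings 0.146% to 0.378% of all genes were called, against 0.740% with all pools.

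Mx2 and Mx1 encode dynamin-like GTPases that trap viral components. For Mx2 the pools held 26.9, 23.6 and 30.1 normalized CPM in the 1wk SBI pools, 45.0, 10.7 and 17.8 in those of 1wk SBI + Lac, 48.3, 22.5 and 19.9 in the 3wk SBI pools, then 11.0, 7.66 and 9.12 in those of 3wk SBI + Lac. Every 3wk SBI pool exceeded every 3wk SBI + Lac pool, and the first 3wk SBI pool was more than 2 times the others. The 3-week log2 fold change was -1.68 (SE 0.54, edgeR adjusted p = 0.125), which did not pass. DESeq2 called Mx2 in the same direction, as given with the counts of calls. Mx1 showed 22.8, 8.24 and 8.91 normalized CPM in 3wk SBI against 6.35, 4.11 and 5.61 in 3wk SBI + Lac, again without overlap (log2 fold change -1.27, SE 0.61, edgeR adjusted p = 0.271). The 2 genes are close in sequence, and how reads that fit both were assigned is not given in the sources used here.

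Rsad2, which encodes viperin, a radical SAM enzyme that makes a chain-terminating nucleotide, had the lowest 3-week log2 fold change of the members, -1.94 (SE 0.62, edgeR adjusted p = 0.102). It was at 4.40, 3.28 and 1.60 normalized CPM in 3wk SBI and at 0.716, 0.358 and 1.76 in 3wk SBI + Lac, so the third pools of the groups overlapped. At 1 week the values were 2.64, 3.21 and 1.90 without lactation and 4.07, 1.80 and 1.12 with it. Cmpk2, the neighbouring gene of a mitochondrial nucleotide kinase, had a 3-week log2 fold change of -0.42 (SE 0.23), with groups that did not overlap.

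Oas1a belongs to the 2′,5′-oligoadenylate synthetases, which activate RNase L when they meet double-stranded RNA. Its pools held 3.27, 2.75 and 3.82 normalized CPM in the 1wk SBI pools, 4.16, 1.08 and 1.72 in those of 1wk SBI + Lac, 3.33, 2.54 and 2.64 in the 3wk SBI pools, then 2.44, 1.67 and 1.10 in those of 3wk SBI + Lac. The 3-week groups did not overlap, but the log2 fold change did not pass (-0.62, SE 0.42, edgeR adjusted p = 0.415). Oasl, a family member that aids RIG-I signalling, had a 3-week log2 fold change of -1.06 (SE 0.56). Rodent Oas1 genes lie in a cluster of near-identical copies, so their reads may be split among paralogs.

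The tetratricopeptide members Ifit2 and Ifit3, which bind viral RNA and halt its translation, had 3-week log2 fold changes of -0.32 (SE 0.20) and -0.93 (SE 0.49), and neither overlapped between groups. Ifit1 gave 9 counts in all 12 libraries together. These were 4 in 1wk SBI replicate 2, 2 in 1wk SBI + Lac replicate 1, and 2 and 1 in replicates 1 and 2 of 3wk SBI + Lac, which allows no comparison.

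Xaf1, a proapoptotic partner of XIAP, was at 4.68, 5.23 and 6.35 normalized CPM in the 1wk SBI pools, 5.67, 2.88 and 2.80 in those of 1wk SBI + Lac, 5.15, 3.72 and 5.03 in the 3wk SBI pools, then 3.06, 3.17 and 2.31 in those of 3wk SBI + Lac. Only the 3-week groups were apart (log2 fold change -0.67, SE 0.28, edgeR adjusted p = 0.185; at 1 week -0.52, SE 0.26, edgeR adjusted p = 0.287). Sp100, a component of nuclear bodies that restrict viral DNA, was apart at both times. It had 33.7, 33.4 and 31.7 normalized CPM in the 1wk SBI pools, 31.4, 25.4 and 29.0 in those of 1wk SBI + Lac, 25.7, 26.4 and 36.8 in the 3wk SBI pools, then 23.0, 22.6 and 19.6 in those of 3wk SBI + Lac. The log2 fold changes were -0.20 (SE 0.13, edgeR adjusted p = 0.414) and -0.46 (SE 0.14, edgeR adjusted p = 0.0789).

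Among the members with the most CPM, Ifi27, a mitochondrial protein gene, moved over a narrow range. It stood at 122, 101 and 108 normalized CPM in 3wk SBI and at 83.8, 89.6 and 95.5 in 3wk SBI + Lac, apart by a log2 fold change of -0.30 (SE 0.13, edgeR adjusted p = 0.195). At 1 week its values were 88.7, 123 and 109 without lactation and 109.8, 94.6 and 90.6 with it, which overlapped. Ifitm3, whose protein stops virus entry at the endosome, was at 30.8, 29.4 and 35.3 normalized CPM in 3wk SBI and at 28.2, 30.0 and 18.6 in 3wk SBI + Lac (log2 fold change -0.30, SE 0.16, edgeR adjusted p = 0.295). At 1 week Ifitm3 held 35.8, 35.1 and 32.5 normalized CPM without lactation and 36.8, 26.4 and 33.4 with it. Both genes overlapped between the groups at 1 week, and Ifitm3 at 3 weeks too.

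Zbp1, a sensor of left-handed nucleic acid that can trigger necroptosis, rested on few reads. Its raw counts were 15, 37 and 18 in the 1wk SBI pools, 32, 0 and 13 in those of 1wk SBI + Lac, 4, 3 and 58 in the 3wk SBI pools, then 4, 16 and 0 in those of 3wk SBI + Lac. The 3-week log2 fold change of -1.46 had an SE of 1.01 (edgeR adjusted p = 0.431).

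Of the remaining effectors, Bst2 (tetherin, which holds budding virions at the membrane), Eif2ak2 (the double-stranded RNA kinase PKR) and Rtp4 (a receptor transporter) did not overlap between the 3-week groups, with log2 fold changes of -0.57 (SE 0.18), -0.34 (SE 0.12) and -0.59 (SE 0.21). Ifi44 overlapped and had the smallest 3-week log2 fold change of the members, -0.25 (SE 0.19).

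**Figure D2:**
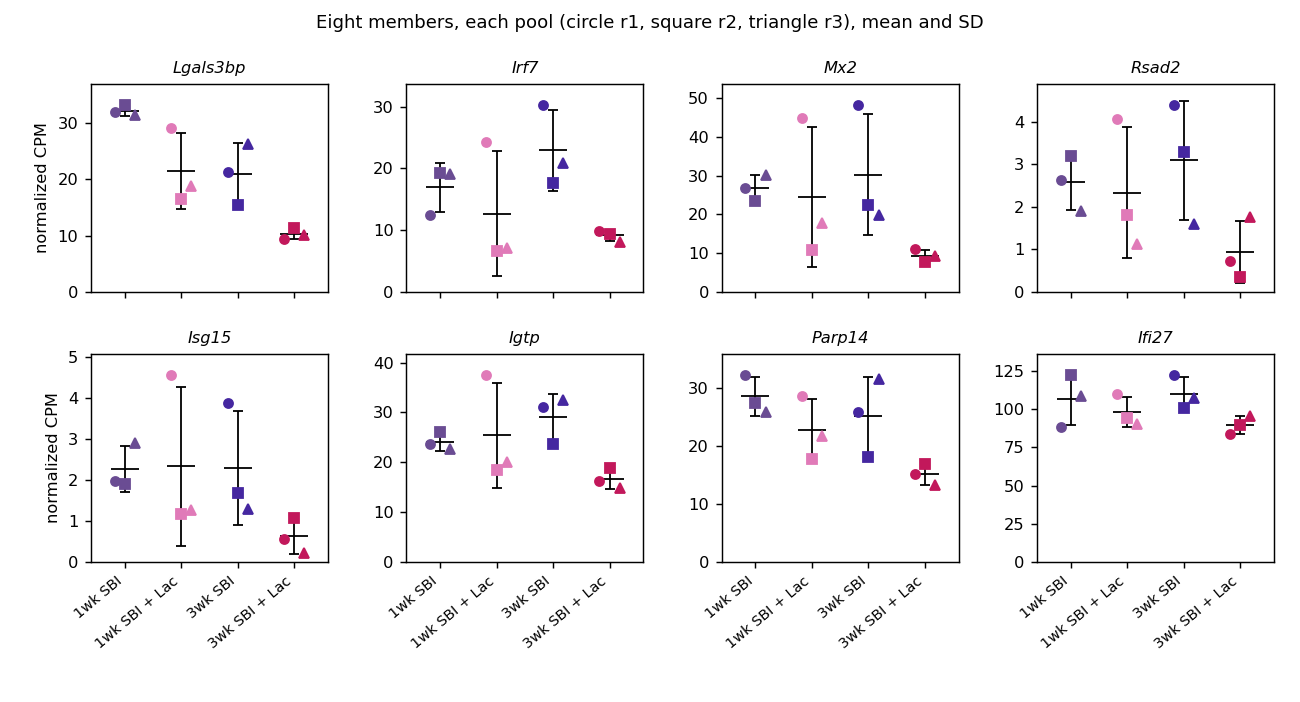
Normalized CPM (vertical axis, from 0) of 8 members in the 4 groups; circles, squares and triangles are pools 1, 2 and 3, the long dash is the mean and the bar 1 SD. In Lgals3bp, Irf7, Mx2, Isg15, Igtp, Parp14 and Ifi27 the 3wk SBI + Lac points lie below all 3wk SBI points, and in Rsad2 they overlap.

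The transcription factors of the pathway were 4 members. Irf7, which amplifies the type I response and is itself induced by it, held 12.4, 19.2 and 19.1 normalized CPM in the 1wk SBI pools, 24.3, 6.54 and 7.05 in those of 1wk SBI + Lac, 30.3, 17.6 and 20.8 in the 3wk SBI pools, then 9.83, 9.40 and 8.13 in those of 3wk SBI + Lac. At 3 weeks the groups did not overlap, with means of 22.9 ± 6.58 and 9.12 ± 0.883 (SD, n = 3 pools each). The log2 fold change was -1.29 (SE 0.48) and did not pass (edgeR adjusted p = 0.159). It did pass when the spread was estimated from the 6 libraries of 3 weeks alone, both in edgeR and in DESeq2. The study, which used DESeq2, names Irf7 among the genes higher in non-lactating rats at 3 weeks. At 1 week 1 lactating pool was above and the other 2 below all non-lactating pools (log2 fold change -0.42, SE 0.45, edgeR adjusted p = 0.649).

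Irf9 and Stat2, which act at the ISRE, had 3-week log2 fold changes of -0.36 (SE 0.21) and -0.40 (SE 0.17). Irf9 was apart between groups and Stat2 overlapped. Irf1, a factor that interferon gamma induces early, had -0.37 (SE 0.28), with overlap. None of the 4 passed at either time, and at 1 week the median over them was -0.020, with 2 of 4 below 0.

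Both RNA sensors tested had values below 0 at 3 weeks, and neither passed. Ifih1, the gene of MDA5, which detects long double-stranded RNA, was at 11.9, 10.1 and 12.0 normalized CPM in 3wk SBI against 8.60, 8.78 and 7.03 in 3wk SBI + Lac. The groups did not overlap (log2 fold change -0.46, SE 0.15, edgeR adjusted p = 0.102). At 1 week the sign was the opposite, with 11.7, 10.9 and 13.0 normalized CPM without lactation and 15.4, 12.7 and 11.3 with it (log2 fold change 0.15, SE 0.14, edgeR adjusted p = 0.599). Dhx58, the gene of the regulator LGP2, had a 3-week log2 fold change of -0.74 (SE 0.33), with overlap. The row named Rig1 was not lower in the lactating groups, with log2 fold changes of 0.17 (SE 0.19, edgeR adjusted p = 0.646) at 1 week and 0.12 (SE 0.20, edgeR adjusted p = 0.776) at 3 weeks.

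The ISG15 and ubiquitin system had 7 members tested, all below 0 at 3 weeks (median -0.55) and 5 of 7 at 1 week (median -0.10). Isg15, a ubiquitin-like modifier, was at 1.97, 1.89 and 2.91 normalized CPM in the 1wk SBI pools, 4.56, 1.15 and 1.27 in those of 1wk SBI + Lac, 3.86, 1.67 and 1.28 in the 3wk SBI pools, then 0.554, 1.07 and 0.220 in those of 3wk SBI + Lac. The 3-week groups were apart, 2.93-fold by the fit, but the pools of each varied by more than 3 times, and the log2 fold change of -1.55 (SE 0.63) did not pass (edgeR adjusted p = 0.175). Its raw counts were 36, 27 and 107 in 3wk SBI and 17, 66 and 2 in 3wk SBI + Lac, so the lowest value rests on 2 counts. Usp18, the protease that removes ISG15 and restrains the type I receptor, had a log2 fold change of -1.04 (SE 0.40, edgeR adjusted p = 0.158). Parp14, a mono-ADP-ribosyltransferase, was at 25.9, 18.1 and 31.5 normalized CPM in 3wk SBI against 15.1, 16.9 and 13.3 in 3wk SBI + Lac (log2 fold change -0.73, SE 0.20, edgeR adjusted p = 0.0676). At 1 week it stood at 32.3, 27.5 and 25.9 without lactation and at 28.6, 17.8 and 21.7 with it (log2 fold change -0.33, SE 0.19, edgeR adjusted p = 0.361). Trim25, a ubiquitin ligase of the RIG-I pathway, was also apart at 3 weeks (log2 fold change -0.55, SE 0.17), whereas Parp9 and its partner Dtx3l (both -0.51) and the ligase Herc6 (-0.43) overlapped.

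The interferon-gamma-inducible GTPases Gbp2, Gbp5, Igtp and Irgm, which attack the membranes of intracellular pathogens, and Tap1, a subunit of the transporter that loads peptides onto MHC class I, had the lowest role median at 3 weeks, -0.75. Igtp was at 23.5, 26.1 and 22.6 normalized CPM in the 1wk SBI pools, 37.5, 18.4 and 20.1 in those of 1wk SBI + Lac, 31.0, 23.7 and 32.4 in the 3wk SBI pools, then 16.2, 18.7 and 14.8 in those of 3wk SBI + Lac. Its 3-week groups did not overlap (log2 fold change -0.79, SE 0.23, edgeR adjusted p = 0.0857), and at 1 week the value was 0.07 (SE 0.22, edgeR adjusted p = 0.897). Gbp5 was apart at 3 weeks as well (-0.91, SE 0.31), and Gbp2 (-0.75, SE 0.34), Tap1 (-0.58, SE 0.33) and Irgm (-0.53, SE 0.43) overlapped.

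**Figure D3:**
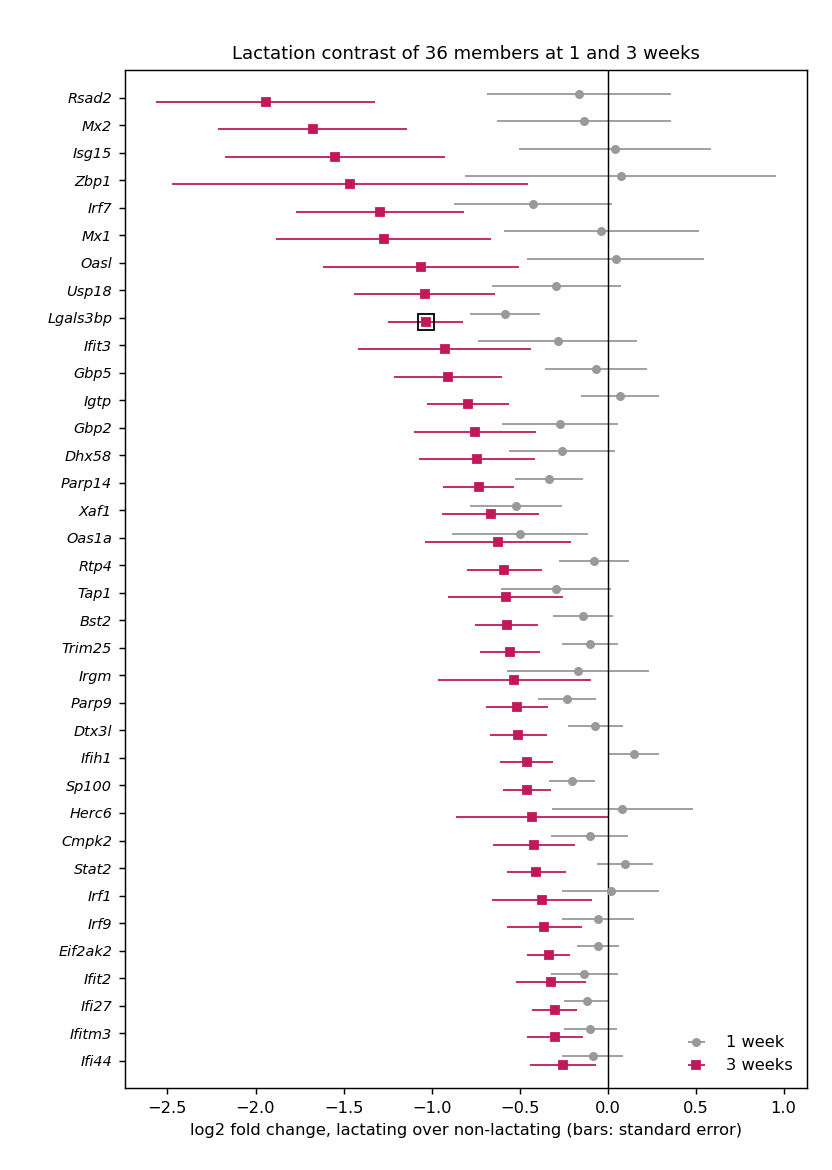
Log2 fold change of lactating over non-lactating rats (horizontal axis) for the 36 members tested, at 1 week (circles) and 3 weeks (squares), with bars of 1 standard error; the open square frames Lgals3bp, the member called. At 3 weeks the values run from -1.94 to -0.25, and at 1 week from -0.59 to 0.15.

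For the comparison at 1 week, pups left to nurse against pups removed, edgeR called 0 of 36 members, against 0.253% of all genes tested. At an unadjusted p under 0.05 there was 1 member, Lgals3bp, against 18.9% of all genes, and DESeq2 called 0 with all libraries or only those compared (1.09% and 1.93% of its genes lower). The members' median log2 fold change was -0.11, against -0.0038 for all genes, and 28 of 36 were below 0, against 50.5% of all genes. In 2 members, Lgals3bp and Sp100, the lactating pools lay below the non-lactating pools without overlap, against 14.1% of all genes, and in none did they lie above.

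The 1-week values depended on which pool of 1wk SBI + Lac was included. 1wk SBI + Lac replicate 1 was the highest of its group for 34 of 36 members, against 33.3% of all genes tested, and it averaged 0.65 above its group mean on the log2 scale over the members. The ratio of the highest to the lowest pool in that group had a median of 1.98 over the members and 1.25 over all genes. It exceeded 2 for 18 members, against 13.4% of all genes. Without that pool the median log2 fold change at 1 week was -0.51, with 34 of 36 below 0 and 25 apart without overlap, against 19.2% of all genes apart in that direction, and no member was called (0.0133% of all genes). Without 1wk SBI + Lac replicate 2 the median was 0.0050, with 18 of 36 below 0, and without replicate 3 it was -0.022, with 20 of 36 below 0. The summed markers of replicate 1 were 608 normalized CPM for macrophages and monocytes, between 490 and 682 in the other 2 pools, and 27.5 for T cells, between 24.7 and 29.7. Those of fibroblasts were the lowest of the group, 4200 against 4893 and 7777. Those of erythroid cells were the highest, 780 against 749 and 556. The part of these cells in the values of this pool was not tested.

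For the comparison at 3 weeks, near weaning, edgeR called 1 of 36 members, against 0.740% of all genes tested (0.534% lower). Without a fold cutoff the count was still 1, against 2.54% of all genes (1.19% lower). At an unadjusted p under 0.05 there were 21 members, against 11.2% of all genes in the lower direction, and 9 members had a log2 fold change below -1, against 5.68%. All 36 were below 0, against 52.3% of all genes. DESeq2 called 3 with all 12 libraries (Mx2, Lgals3bp and Rsad2; 1.37% of its genes lower) and 5 with only the 3-week libraries (these and Mx1 and Irf7; 1.03%). In edgeR with only the 3-week libraries the count was 2 (Lgals3bp and Irf7; 0.547%). These tests share the same 6 pools and differ in how the spread is estimated.

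Leaving out each 3-week pool in turn, 36 of 36 members stayed below 0, with medians from -0.72 to -0.46. The number of members called was 0 without 3wk SBI replicate 3 (0.284% of all genes called). It was also 0 without replicate 1, 2 or 3 of 3wk SBI + Lac (0.146%, 0.378% and 0.373%). With all pools 0.740% of all genes were called, so calls were fewer over all genes too. The number of members apart without overlap ranged from 23 to 34, against 13.7% to 18.3% of all genes. It was 34 without 3wk SBI replicate 2, against 16.1% of all genes. That pool was the lowest of its group for 27 members, against 29.7% of all genes. With both 1wk SBI + Lac replicate 1 and 3wk SBI replicate 1 left out, a setting chosen after seeing the data, Mx2, Lgals3bp and Irf7 were called at 3 weeks, against 0.735% of all genes, and the median was -0.60.

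**Figure D4:**
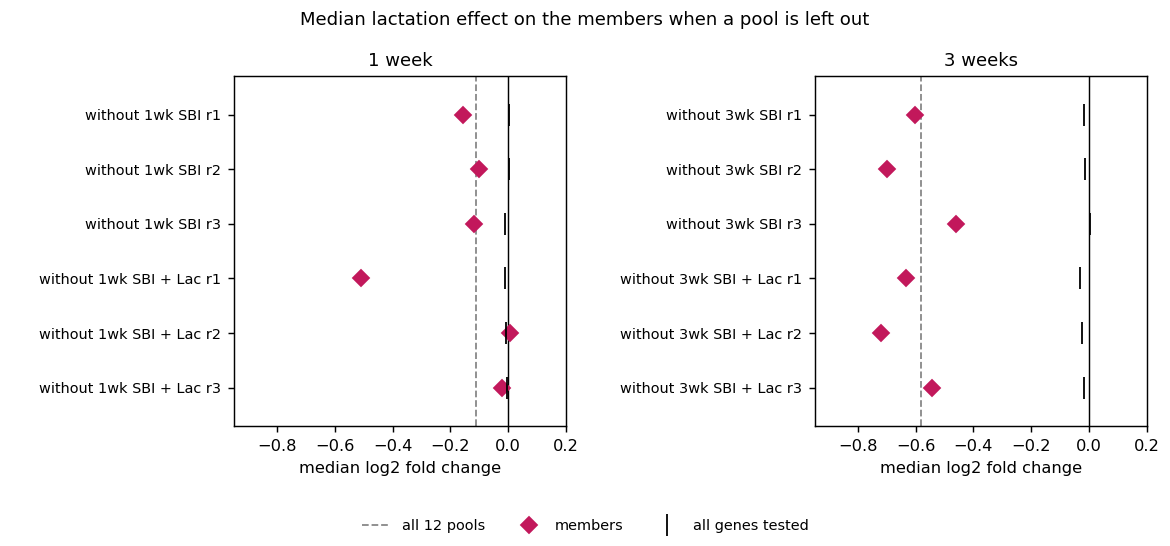
Median log2 fold change of lactating over non-lactating rats (horizontal axis) over the members (diamonds) and over all genes tested (ticks) when the pool named at the left is left out; the dashed line is the members' median with all 12 pools. At 3 weeks the diamonds stay between -0.72 and -0.46, and at 1 week they reach -0.51 without 1wk SBI + Lac replicate 1 and 0.0050 without replicate 2.

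Within 3wk SBI the members fell into different orders. The first pool was the highest for 18 of 36 members, against 35.4% of all genes tested, among them Isg15, Mx1, Mx2, Rsad2, Irf7, Oas1a, Oasl, Ifit2, Ifit3 and Usp18. The others were Stat2, Ifi44, Ifi27, Dhx58, Xaf1, Dtx3l, Herc6 and Rtp4. The third pool was the highest for 17 of 36, against 35.7% of all genes, among them all 5 of the GTPases and Tap1, with Irf1, Irf9, Bst2, Sp100 and Lgals3bp. The rest of these were Ifih1, Parp9, Parp14, Eif2ak2, Trim25, Zbp1 and Ifitm3. The third pool also had the highest sum of macrophage and monocyte markers, 1224 normalized CPM against 573 and 579, and of T cell markers, 54.9 against 34.8 and 22.4. In the first pool the macrophage sum was 573 and the T cell sum 34.8. The part of these cells in the order of the pools was not tested.

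Markers of several other cells moved with lactation beside the members. The summed markers of macrophages and monocytes ran from 573 to 1224 normalized CPM in 3wk SBI and from 493 to 794 in 3wk SBI + Lac, and all 24 had log2 fold changes below 0 (median -0.73). At 1 week they ran from 768 to 861 without lactation and from 490 to 682 with it, with 23 of 24 below 0 (median -0.64). T cell markers, with all 17 rows above 0, summed to between 22.4 and 54.9 in 3wk SBI and to between 17.9 and 23.0 in 3wk SBI + Lac. At 1 week the sums were 37.2 to 58.3 and 24.7 to 29.7. Those of plasmacytoid dendritic cells, the chief makers of type I interferon, ran from 43.3 to 72.3 and from 27.3 to 39.8 at 3 weeks, and from 92.9 to 149.95 and from 58.3 to 80.1 at 1 week, with 10 of 11 rows above 0 and Ly6d at 0. Skeletal muscle markers took a larger share in lactating rats, 215514 to 242588 against 146374 to 200073 at 3 weeks, and 155784 to 184662 against 100450 to 157433 at 1 week, where the ranges overlapped. Median log2 fold changes at 1 and 3 weeks were -0.86 and -0.91 for 16 T cell markers tested and -1.15 and -1.51 for 10 of plasmacytoid dendritic cells. They were -1.17 and -1.10 for 7 of NK cells, -0.82 and -0.59 for 7 rows of conventional dendritic cells, and -1.12 and -1.14 for 3 of neutrophils. All 9 NK cell rows were above 0, summing to 3.75 to 9.13 in 3wk SBI against 1.10 to 4.196 with lactation, and at 1 week to 3.72 to 8.32 against 1.80 to 4.18. Conventional dendritic cell markers, 8 of 9 rows above 0 with Cd209a at 0, summed to 9.12 to 14.4 against 7.16 to 10.7 at 3 weeks and to 13.8 to 16.9 against 9.93 to 11.9 at 1 week. Neutrophil markers, 8 of 9 rows above 0 with Elane at 0, summed to 0.495 to 4.72 against 0.977 to 1.69 and to 3.46 to 6.22 against 2.23 to 2.68. The 3-week ranges of the macrophage, T cell, NK cell, conventional dendritic cell and neutrophil sums overlapped between the groups, as did those of NK cells at 1 week. Fibroblast markers, all 9 rows above 0, summed to 3483 to 7813 against 2128 to 3051 at 3 weeks. At 1 week they summed to 7136 to 10310 against 4200 to 7777. Their median log2 fold changes at 1 and 3 weeks were -0.22 and -0.47. Those of endothelial markers were -0.082 and -0.13, of adipocyte markers -0.12 and 0.076, and of 2 B cell markers -0.84 and -1.95. Erythroid markers had 1.22 and 0.39. Milk and mammary markers had 5.75 and 8.84 over 5 tested, of which 1 and 2 were below 0. Their sums at 3 weeks were 2.68, 0.805 and 0.768 normalized CPM in 3wk SBI and 39.9, 11.5 and 0.660 in 3wk SBI + Lac, which overlapped. At 1 week the milk sums ran from 0.726 to 1.82 and from 1.31 to 3.59, again with overlap. The part of these cells in the members' values was not tested.

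The lactation effect at 3 weeks was then compared with that at 1 week in an interaction term. No member was called, against 0.00685% of all genes, and every edgeR adjusted p was 0.999. At an unadjusted p under 0.05 there were 4 members (Ifih1, Igtp, Stat2 and Rsad2), against 4.42% of all genes, and DESeq2 called 0. All 36 differences were below 0, against 52.6% of all genes (median -0.45, against -0.017 for all genes), meaning a lactation fold change that was lower at 3 weeks than at 1 week. They share the 3-week pools with the comparison above. The 1-week effect rests on whole-number values and the 3-week effect on values with decimals. Any part of this in the difference was not tested. Without 1wk SBI + Lac replicate 1 the count below 0 was 28 and the median -0.15, so the size of this difference depended on that pool.

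From 1 to 3 weeks in non-lactating rats the members showed no common direction. Of 36, 17 were lower and 19 higher at 3 weeks, where 51.0% of all genes tested were lower. The median was 0.0032 on the log2 scale, and edgeR called 0, against 1.46% of all genes. There were 2 at an unadjusted p under 0.05, against 21.2% of all genes, and DESeq2 called 0. Lgals3bp and Ifi44 were lower at 3 weeks without overlap, against 11.4% of all genes, with log2 fold changes of -0.60 (SE 0.20, edgeR adjusted p = 0.106) and -0.48 (SE 0.18, edgeR adjusted p = 0.142). The 1-week values are whole numbers, while many 3-week values hold decimals, as estimated counts do. Whether both were counted in the same way is not known here. Time and any difference in counting thus cannot be told apart.

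In lactating rats all 36 members were lower at 3 weeks than at 1 week, against 52.3% of all genes. The median was -0.52 on the log2 scale. One was called, against 0.774% of all genes: Lgals3bp (-1.05, SE 0.21, edgeR adjusted p = 0.0270). Ifih1 passed the adjusted p alone (-0.67, SE 0.15, edgeR adjusted p = 0.0331), as did 2.01% of all genes. DESeq2 called 2, Lgals3bp and Isg15, with all libraries or only those compared (1.48% of its genes lower in both). In 12 members the pools of the times did not overlap, against 14.7% of all genes. Without 1wk SBI + Lac replicate 1 no member was called (0.406% of all genes), 24 of 36 were lower and the median was -0.21. Lgals3bp also lost the call without replicate 3 of 1wk SBI + Lac or without any pool of 3wk SBI + Lac. There 0.182% to 0.300% of all genes were called. As without lactation, time and any difference in counting cannot be told apart here.

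Upstream of the members, the interferons themselves were hardly read. Of 8 ligand genes listed none had enough counts to be tested, and Ifnb1, Ifnk, Ifna4, Ifnl1, Ifna1 and Ifnl3 had 0 counts in all libraries. Ifng, the gene of interferon gamma, had 19 counts in all, of which 9 were in 1wk SBI replicate 1, 3 in 1wk SBI + Lac replicate 1 and 7 in 3wk SBI replicate 3. Ifne had 10. A difference in ligand transcripts was not detectable at this depth.

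The 6 interferon receptor genes were all tested and none passed, with 5 of 6 below 0 at 1 week and 6 of 6 at 3 weeks, and medians of -0.21 at both times. Of 14 genes of signal transduction, 10 were below 0 at each time, with medians of -0.12 and -0.17. Traf3, an adaptor that leads from RNA sensors to interferon production, fell at 3 weeks (log2 fold change -0.42, SE 0.10, edgeR adjusted p = 0.0454). Of 11 further nucleic acid sensors, 9 and 10 were below 0, with medians of -0.46 and -0.50, and none passed. Of 10 feedback inhibitors, 6 and 5 were below 0, with medians of -0.12 and -0.073, and none passed. The receptors and inhibitors thus sat nearer 0 than the members at 3 weeks, a difference that was not tested.

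Outside the set, 53 rows of further interferon-induced genes could be tested. Of these rows 43 were below 0 at 1 week (median -0.28) and 48 at 3 weeks (median -0.56). The 55 genes listed had 58 rows, with 2 each for Oas1f, Ifi35 and Slfn4, so a gene can count 2 times here. At 3 weeks 4 of the 53 rows, each of a different gene, passed the adjusted p, all lower, against 1.19% of all genes. None did at 1 week. Mlkl, the executioner of necroptosis, fell by 1.07 on the log2 scale (SE 0.21, edgeR adjusted p = 0.0164) and was the one called. Parp12, an ADP-ribosyltransferase, had a log2 fold change of -0.82 (SE 0.16, edgeR adjusted p = 0.0181), the Schlafen gene Slfn2 -0.88 (SE 0.19, edgeR adjusted p = 0.0341) and the nuclear body gene Sp110 -0.93 (SE 0.22, edgeR adjusted p = 0.0381). MHC class I and immunoproteasome genes, 10 tested, had medians of -0.024 and -0.33, with 6 and 10 below 0, and none passed.

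How closely the members moved together was described from each pool's deviation from its group mean, over the 12 pools. Igtp (Pearson r = 0.97), Irf7 (0.95) and Herc6 (0.95) followed the members' mean deviation most closely among the members. That mean includes the member itself, which raises its correlation, and does not include the genes outside the set. Outside the set, the 10 genes with the most similar pattern were Ets2 (0.94), Zdhhc17 (0.90), Gbp4 (0.89), Ly6e (0.88), Klf10 (0.88), Rnf213 (0.87), Hdac11 (0.86), Gsta6 (0.86), Pigu (0.85) and Ift25 (0.85). These values are descriptions over 12 pools that share their libraries' depth and scaling, and 1 pool, 1wk SBI + Lac replicate 1, has the largest deviation among them. Of the 10, Gbp4, Ly6e and Rnf213 had 3-week log2 fold changes of -1.19, -0.61 and -0.47, while that of Ets2 was -0.074 and that of Zdhhc17 was 0.068.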

How the data were processed

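The members and the gene lists were chosen with earlier results of these data known. Bulk RNA of 12 pools, 2 rats each, was read as stranded mRNA libraries. At 1 week the authors deposited whole-number counts per gene. At 3 weeks many deposited values hold decimals, as estimated counts do, and were rounded here to whole numbers although plain counts had been assumed. Salmon is named in the submitters' processing notes; its version and the genome build are not given in the sources used here. Columns of per-sample values left unused numbered 0. Genes were filtered by filterByExpr, scaled by TMM and tested with edgeR 4.0.16 (R 4.3.3, limma 3.58.1), robust quasi-likelihood, all 12 libraries in 4 groups, Benjamini-Hochberg adjusted over 14599 genes; a gene was called at adjusted p under 0.05 where its log2 fold change also exceeded 1 in size. DESeq2 1.42.0 was an alternative, besides RLE and upper-quartile scaling, other count filters, thinning, a replicate block and each pool left out; the code was tested on simulated data. P-values set a group difference against the spread between pools, part of which may be technical. Pools of 1 group differed by more than counting noise.

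Values in every pool are given for a member passing adjusted p under 0.05 in a lactation contrast or their difference, among the 4 smallest p-values or 3 largest changes, among the 3 highest or lowest levels, or named by the study (Irf7); other members are given by role. Outside the set, the rule names the 10 genes most like the members' mean deviation and list genes with adjusted p under 0.05. Mx1, Ifih1, Rig1 and Oas1k were added after their values were seen. Promoters are RefSeq's, GRCr8.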

Additional observations from a re-analysis of the deposited data

How the results depend on the processing

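At 3 weeks, the number of members called was 1 (0.740% of all genes). It was 3 with DESeq2 on all libraries (1.37% of its genes lower), and 5 with DESeq2 (1.03%) and 2 with edgeR (0.547%) on only the libraries compared. It was 3 without 1wk SBI + Lac replicate 1 and 3wk SBI replicate 1 together (0.735%), and 0 to 1 with a single pool left out (0.146% to 1.05%). From 1 to 3 weeks in lactating rats it was 1, and 2 with DESeq2 in either form (1.48% of its genes lower) or with no fold cutoff (2.01%). It was 0 to 1 there with a pool left out (0.182% to 0.513% of all genes). At 1 week, members apart without overlap numbered 2 (14.1% of all genes), from 2 to 25 with a pool left out (16.6% to 24.1%) and 25 without both pools (19.3%). The median at 3 weeks stayed between -0.72 and -0.46 and that at 1 week between -0.51 and 0.0050 under all settings run. For single members named by the rule, 268 of 281 values under settings other than a single left-out pool kept their direction and side of the cutoffs, 8 gained a call and 5 reversed, all of them at 1 week. With a replicate block Isg15 was -0.21 and Zbp1 -0.14; without both pools Igtp was -0.33, Isg15 -0.90 and Zbp1 -1.34. With single pools left out, 11 of 156 reversed, again at 1 week, where the lowest and highest log2 fold changes were -0.90 and 0.36 for Isg15, -1.35 and 0.65 for Zbp1, -0.84 and 0.18 for Rsad2, -0.33 and 0.26 for Igtp, -0.91 and 0.22 for Mx2, and -0.21 and 0.028 for Ifitm3. The 4 that lost a call were Lgals3bp at 3 weeks. Same-numbered pools of different groups did not deviate in the same direction (r from -0.23 to -0.0046). No pairing by number was seen, but 3 pools per group are too few to tell whether the numbers mark shared batches. The replicate block changed no count of members called. The cause of these shifts was not tested. Library totals at 3 weeks ran from 10082734 to 75634391, and thinning to equal depth changed no count of members called.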

Other observations

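Oas1k, a neighbour of Oas1a in the 2′,5′-oligoadenylate synthetase family and 1 of the further interferon-induced genes, was picked out after its values were seen because it went the other way. It held 0.0801, 0.708 and 1.08 normalized CPM in the 1wk SBI pools, 3.18, 1.73 and 1.60 in those of 1wk SBI + Lac, 3.54, 1.98 and 0.708 in the 3wk SBI pools, then 5.08, 5.97 and 3.96 in those of 3wk SBI + Lac. The lactating pools lay above the non-lactating pools at both times, without overlap. The log2 fold changes of 1.83 (SE 0.69, edgeR adjusted p = 0.177) and 1.47 (SE 0.68, edgeR adjusted p = 0.242) did not pass. The study, which used DESeq2, does list Oas1k as differentially expressed and higher in lactating rats at both times. Oas1a, its relative among the members, had values below 0 in the same comparisons, and how reads shared by these copies were assigned is not given in the sources used here.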
